A study of Mus musculus with 12 samples.

Results

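The Cd300 genes encode receptors of the immunoglobulin family that sit on the surface of white blood cells, and 10 of them, Cd300a, Cd300c2, Cd300lb, Cd300ld, Cd300ld2, Cd300ld3, Cd300ld4, Cd300ld5, Cd300lf and Cd300lg, were followed here among the 55573 genes of the count table. The members were taken by symbol from the Ensembl identifiers of the table, and all 10 were found and passed the filter on low counts. The family was selected on measured values, the log2 fold changes with vitamin B12 of Cd300ld4 and Cd300ld5 in these same libraries, so that B12 values of the members are given below as a description, with no p for a member. The cells were C57BL/6 mouse embryonic fibroblasts (MEFs) from embryos at day E13.5, in which doxycycline switches on a cassette of Oct4, Sox2, Klf4 and Myc (OSKM), the factors that turn fibroblasts into pluripotent cells. Cells of 3 embryos, named clones 1 to 3, were each kept in medium for induced pluripotent stem cells for 72 h as 4 groups, which were no addition (MEF), 2 µM B12 (MEF+B12), doxycycline (OSKM), and doxycycline with 2 µM B12 (OSKM+B12). That gave 12 libraries, 3 in each group. All cells carried the cassette, and doxycycline was given only to the induced groups, so the drug and the factors cannot be told apart. Each clone is 1 embryo, and the library titles give a later year for clone 1 than for clones 2 and 3.

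Receptors of this family bind lipids and other ligands through a single immunoglobulin-like domain. Cd300a and Cd300lf carry inhibitory motifs in their tails that recruit phosphatases such as SHP-1 (Ptpn6), while members with short tails pair with adaptor proteins such as DAP12 (Tyrobp) and the Fc receptor gamma chain (Fcer1g) and activate the cell. The family is known from macrophages, other myeloid cells and mast cells, and Cd300lg from endothelium, and none of it is a marker of fibroblasts.

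Library totals were 56971244 to 79236795 counted read pairs, of which 0.00401% to 0.0121% (2612 to 7516 pairs) fell on the 10 members. The OSKM library of clone 1 stood apart from the other libraries of its clone. Over 1519 pseudogenes its log2 difference from them had an SD of 0.548, against 0.112 to 0.243 in the other 11 libraries. The cultures had high fibroblast markers, with a summed level of 89403 to 142511 CPM over 10 genes. They also held macrophage markers, which summed to 1194 to 3033 CPM over 14 genes, while the 8 neutrophil markers summed to at most 0.207 CPM, the 6 lymphocyte markers to at most 0.0689 CPM, the 6 mast cell markers to at most 0.346 CPM and the 6 dendritic cell markers to at most 3.56 CPM. CPM are the usual library-scaled counts, here with library sizes adjusted by TMM normalization. In such bulk samples, more or fewer cells of a type and more or less RNA per cell cannot be told apart.

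Several members share most of their sequence. The transcripts of Cd300ld3, Cd300ld4 and Cd300ld5 each have 852 bases. Those of Cd300ld5 and Cd300ld4 differ at 1 base, A561G (base of Cd300ld5 first, counted from the 5′ end of the transcript), and those of Cd300ld5 and Cd300ld3 at 9 bases. Around that only difference from Cd300ld4, the coding strand of GRCm38 reads as below, and is shown because 61 bases hold everything that tells the exons of Cd300ld4 and Cd300ld5 apart (capital, base 561; chr11:115022751-115022811, chr11:115033509-115033569 and chr11:115044154-115044214, all on the minus strand and within 1 coding exon).
Cd300ld4: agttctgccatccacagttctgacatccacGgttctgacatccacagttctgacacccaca
Cd300ld5: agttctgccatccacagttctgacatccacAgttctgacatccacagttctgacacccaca
Cd300ld3: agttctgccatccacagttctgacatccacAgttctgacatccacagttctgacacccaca
Of the 50-base words in the exons of Cd300ld5, 100% occurred in another Cd300 gene, against 93.8% for Cd300ld4, 82.1% for Cd300ld3 and 31% for Cd300ld2. The same share was 7.16% for Cd300c2, 3.89% for Cd300ld, 1.91% for Cd300lf, 1.90% for Cd300a, and 0% for Cd300lb and Cd300lg. Reads were 50 bases long, in pairs, and how pairs that match several places were counted is not stated. Cd300ld5, with no 50-base word of its own, still had 7033 counts over the 12 libraries. The same pairs may thus stand in more than 1 of these rows. The separate values of Cd300ld3, Cd300ld4 and Cd300ld5 are therefore uncertain. The 3 genes are also given as 1 sum, which may hold such pairs more than once, as may the sum of all members.

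**Figure D1:**
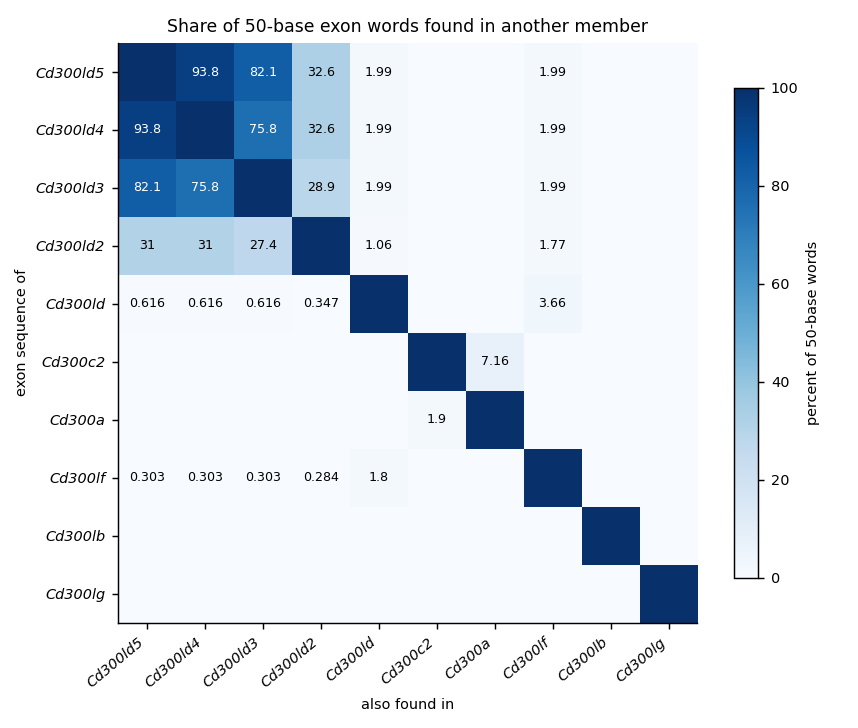
Share of the 50-base exon words of each member (rows) that also occur in the exons of each other member (columns), in percent, with shares of 0 and the dark diagonal left without a number. The block formed by Cd300ld5, Cd300ld4 and Cd300ld3 holds shares of 75.8% to 93.8%, Cd300ld2 shares up to 32.6% with it, and Cd300lb and Cd300lg share nothing.

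The members lie close together. Of the 10, 9 fall between bases 114890041 and 115133992 of chromosome 11 (GRCm38), with Cd300a (ENSMUSG00000034652, chr11:114890041-114904654) on the plus strand and the other 8 on the minus strand. Cd300ld2 (ENSMUSG00000089753, chr11:115010335-115016193), Cd300ld4 (ENSMUSG00000069609, chr11:115020728-115027012), Cd300ld5 (ENSMUSG00000089722, chr11:115031486-115037769) and Cd300ld3 (ENSMUSG00000069607, chr11:115042131-115048409) follow one another with no annotated gene between them, and Cd300ld (ENSMUSG00000034641, chr11:114982274-114989922) and Cd300c2 (ENSMUSG00000044811, chr11:114996721-115001880) come just before them. Cd300lg (ENSMUSG00000017309, chr11:102041509-102055620) lies apart on the plus strand. Cd300lb (ENSMUSG00000063193, chr11:114922781-114934386) follows Cd300a, and Cd300lf (ENSMUSG00000047798, chr11:115116214-115133992) ends the stretch. Cd300lf lies within Rab37 on the opposite strand and shares no exon base with it. Cd300c and Cd300e, the other 2 Cd300 genes of this stretch, had 3 and 43 counts over the 12 libraries and were not tested.

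Cd300ld3, Cd300ld4 and Cd300ld5 also shared most of their upstream sequence. Over the 250 bases before and 50 after the start (RefSeq, GRCm38.p6, which held 8 of the 10 members), Cd300ld4 and Cd300ld5 were identical at 300 of 300 bases, and Cd300ld3 matched both at 285 of 300. The 250 bases before the start are printed for these 3 genes, to show how alike they are. Those bases are also printed for Cd300ld, which holds the same short motif at another distance from the start. GAGGAAGT, the core bound by PU.1 and related ETS factors, is in capitals (chr11:115026934-115027183, chr11:115037691-115037940, chr11:115048331-115048580 and chr11:114989887-114990136, minus strand).
Cd300ld4 and Cd300ld5: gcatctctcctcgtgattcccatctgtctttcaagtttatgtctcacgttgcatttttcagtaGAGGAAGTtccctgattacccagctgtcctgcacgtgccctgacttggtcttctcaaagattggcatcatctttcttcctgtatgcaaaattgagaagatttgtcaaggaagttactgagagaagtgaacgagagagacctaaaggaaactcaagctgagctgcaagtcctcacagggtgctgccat
Cd300ld3: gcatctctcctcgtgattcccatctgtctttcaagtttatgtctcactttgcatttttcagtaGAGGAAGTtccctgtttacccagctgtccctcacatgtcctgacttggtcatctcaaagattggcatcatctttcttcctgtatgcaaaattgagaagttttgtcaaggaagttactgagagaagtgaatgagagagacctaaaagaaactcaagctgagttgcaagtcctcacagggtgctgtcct
Cd300ld: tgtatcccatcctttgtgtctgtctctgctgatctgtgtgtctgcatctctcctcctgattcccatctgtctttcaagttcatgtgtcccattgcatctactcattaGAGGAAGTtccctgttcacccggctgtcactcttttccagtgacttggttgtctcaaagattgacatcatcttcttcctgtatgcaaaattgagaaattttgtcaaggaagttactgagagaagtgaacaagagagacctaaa
Read on both strands, this core began 187 bases before the start in Cd300ld3, Cd300ld4 and Cd300ld5, 143 bases before it in Cd300ld, and at the start itself in Cd300lf. The printed bases around it are alike in Cd300ld and Cd300ld3, whose windows aligned with 226 identical bases, 28 mismatches and 92 gap positions. The core was not found in these windows of Cd300a, Cd300c2 and Cd300lb. Among all 32851 promoter windows of this length, 1052 (3.20%) held it. Such a match is a description of the sequence and not evidence of binding. Spi1, which encodes PU.1, had a mean of 36.2 CPM.

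Per length of exon, Cd300ld3 was the highest member, with 12.2 ± 5.93 CPM per kilobase (SD over 12 libraries). It was followed by Cd300ld5 with 10.7 ± 5.26, Cd300c2 with 10.3 ± 2.42 and Cd300ld4 with 8.64 ± 4.41 CPM per kilobase. A middle group held Cd300lb with 3.76 ± 1.24, Cd300ld with 3.29 ± 1.71, Cd300a with 2.85 ± 0.61 and Cd300ld2 with 1.57 ± 0.92 CPM per kilobase. Cd300lf was low at 0.319 ± 0.085 and Cd300lg lowest at 0.0456 ± 0.058 CPM per kilobase. Not all of these steps were firm. Cd300ld5 stood above Cd300c2 in 6 of 12 libraries, Cd300lb above Cd300ld in 8 and Cd300ld above Cd300a in 5, whereas Cd300ld3 was above Cd300ld5, Cd300ld4 above Cd300lb, Cd300ld2 above Cd300lf and Cd300lf above Cd300lg in 12 of 12. A second length took only the 31-base words found in no other gene and kept the full count. By it Cd300ld3 came to 79.9 and Cd300ld2 to 3.16 CPM per kilobase, and Cd300ld4 and Cd300ld5 had too few such words. These values are too high where pairs from shared sequence were counted, and are not levels over unique sequence. The levels per length of these 4 genes thus depend on how shared sequence is treated.

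**Figure D2:**
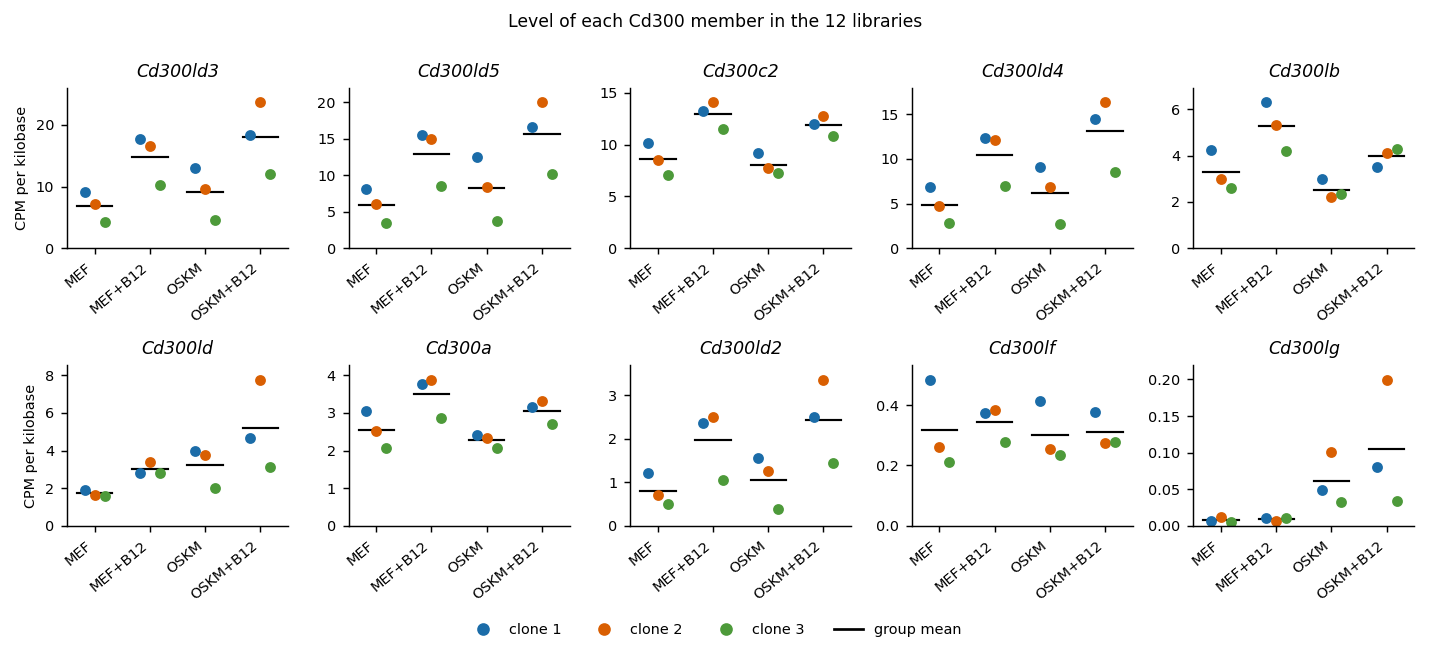
Level of each member in CPM per kilobase of exon (linear axes from 0, a scale of its own in each panel) in the 4 groups, with 1 point per library, coloured by clone, and a line at the mean of the 3. The B12 groups sit higher for Cd300ld3, Cd300ld5, Cd300ld4, Cd300ld2, Cd300c2, Cd300a and Cd300lb, Cd300ld is also higher in the induced groups of clones 1 and 2, and Cd300lg is near 0 in MEF and MEF+B12.

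The counts of Cd300ld3, Cd300ld4 and Cd300ld5 kept near-constant proportions. Pairs from their shared sequence may stand in more than 1 of these rows, so the proportions do not show genes that vary together. The ratio of counts of Cd300ld5 to Cd300ld4 lay between 1.15 and 1.37 (median 1.24) and that of Cd300ld3 to Cd300ld4 between 1.27 and 1.71 (median 1.43) over the 12 libraries. Cd300ld to Cd300ld4 ranged more widely, from 0.710 to 2.32.

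The first question was how the receptors differed between cultures with and without B12, the cofactor of methionine synthase that the study added to reprogramming cells. All 10 members had higher fitted levels with B12 in both states, and 8 were higher in 6 of 6 pairs of libraries of the same clone. The share of all genes with such counts was not computed. These comparisons led to the choice of the family, and Cd300ld3, Cd300ld4 and Cd300ld5 share most of their sequence, so nothing is read from the counts. The rise was largest for Cd300ld2, Cd300ld4, Cd300ld3 and Cd300ld5, about 2-fold or more, and smallest for Cd300lf.

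Among the activating-type members, Cd300ld4 had 5.87, 3.999 and 2.37 CPM in MEF of clones 1, 2 and 3 and 10.5, 10.3 and 5.90 CPM in MEF+B12. In the induced cells it had 7.73, 5.81 and 2.31 CPM in OSKM and 12.3, 13.9 and 7.25 CPM in OSKM+B12. Every B12 library of a clone was above its partner, and clone 3 was the lowest library of each group. The MEF groups did not overlap, by 5.87 against 5.90 CPM. The OSKM groups overlapped, where OSKM of clone 1, the library that stood apart, lay above OSKM+B12 of clone 3. The log2 fold change was 1.17 ± 0.17 (SE) in MEF, 1.16 ± 0.16 in OSKM and 1.16 ± 0.12 over both. Cd300ld3 and Cd300ld5, which carry nearly the same sequence, gave 1.099 ± 0.11 and 1.09 ± 0.12 over both states, and the sum of the 3 genes gave 1.12 ± 0.11. Cd300ld2, the next gene of the row, had few counts (27 to 192). It went from 1.13, 0.648 and 0.457 CPM in MEF to 2.17, 2.29 and 0.971 CPM in MEF+B12, and from 1.42, 1.16 and 0.346 CPM in OSKM to 2.29, 3.09 and 1.34 CPM in OSKM+B12. Again clone 3 was the lowest library of each group, and the log2 fold change over both states was 1.27 ± 0.17.

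Cd300c2, an activating receptor that pairs with DAP12, had 12.9, 10.8 and 9.05 CPM in MEF against 16.9, 18.0 and 14.6 CPM in MEF+B12. After induction it had 11.7, 9.87 and 9.21 CPM in OSKM against 15.2, 16.3 and 13.8 CPM in OSKM+B12. The B12 libraries lay above the others in both states with no overlap, by a log2 fold change of 0.58 ± 0.06. Cd300lb, another partner of DAP12, ranged from 6.43 to 12.4 CPM without and from 10.2 to 18.4 CPM with B12, and its log2 fold change was 0.69 ± 0.11. Cd300ld, which signals through the Fc receptor gamma chain, gave 0.73 ± 0.15.

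The inhibitory members differed from each other. Cd300a ranged from 9.81 to 14.4 CPM without and from 12.9 to 18.4 CPM with B12, with a log2 fold change of 0.45 ± 0.06. Cd300lf, which also serves as the entry receptor of murine norovirus, had 2.49, 1.34 and 1.09 CPM in MEF against 1.92, 1.98 and 1.43 CPM in MEF+B12. After induction it had 2.14, 1.31 and 1.21 CPM in OSKM against 1.94, 1.41 and 1.43 CPM in OSKM+B12. It was lower with B12 in both pairs of clone 1 and higher in the 4 pairs of clones 2 and 3, and its log2 fold change was 0.11 ± 0.13 (95% interval −0.18 to 0.41). Cd300lg, whose 1 to 34 counts per library leave wide errors, gave 0.50 ± 0.47.

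At an adjusted p under 0.05 (edgeR's quasi-likelihood test), 6 of 10 members passed in OSKM, where 1.06% of all 19174 genes tested did, 6 in MEF against 1.38%, and 8 over both states against 3.84%. Since these comparisons led to the choice of the family, nothing is read from these counts. The B12 libraries lay above the others with no overlap for 3 members in OSKM (Cd300a, Cd300c2 and Cd300lb), where 4.8% of all genes did so, and for 5 in MEF (Cd300c2, Cd300ld, Cd300ld3, Cd300ld4 and Cd300ld5), where 5.85% did. The counts of members past the adjusted threshold fell to 0 of 10 in OSKM and in MEF without clone 2 or without clone 3, and over both states to 0 without clone 2. Without clone as a term the counts were 0, 0 and 1. Without the OSKM library of clone 1, 5 passed in OSKM, and the log2 fold change of Cd300ld4 there was 1.35. The median log2 fold change over both states was 0.71 for the 10 members and −0.01 for all genes tested. Added up, the members came to 54.4 ± 13.9 CPM in MEF (SD, n = 3) against 92.8 ± 17.7 CPM in MEF+B12, and to 59.7 ± 16.7 CPM in OSKM against 98.9 ± 22.1 CPM in OSKM+B12, a log2 fold change with B12 of 0.76 ± 0.07.

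**Figure D3:**
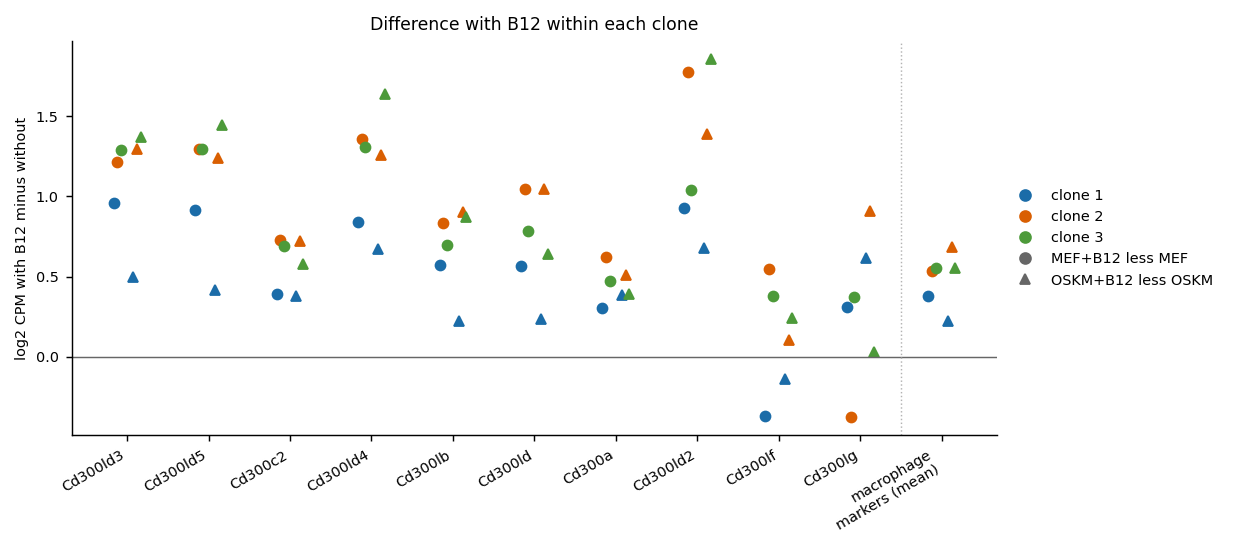
Difference in log2 CPM between the library with B12 and the library without it of the same clone, in uninduced (circles) and induced cells (triangles), for each member and for the mean of 13 macrophage markers, coloured by clone. All 6 points lie above 0 for 8 members, the points of clone 1 are the lowest for most of them, and for Cd300lf both points of clone 1 lie below 0.

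**Figure D4:**
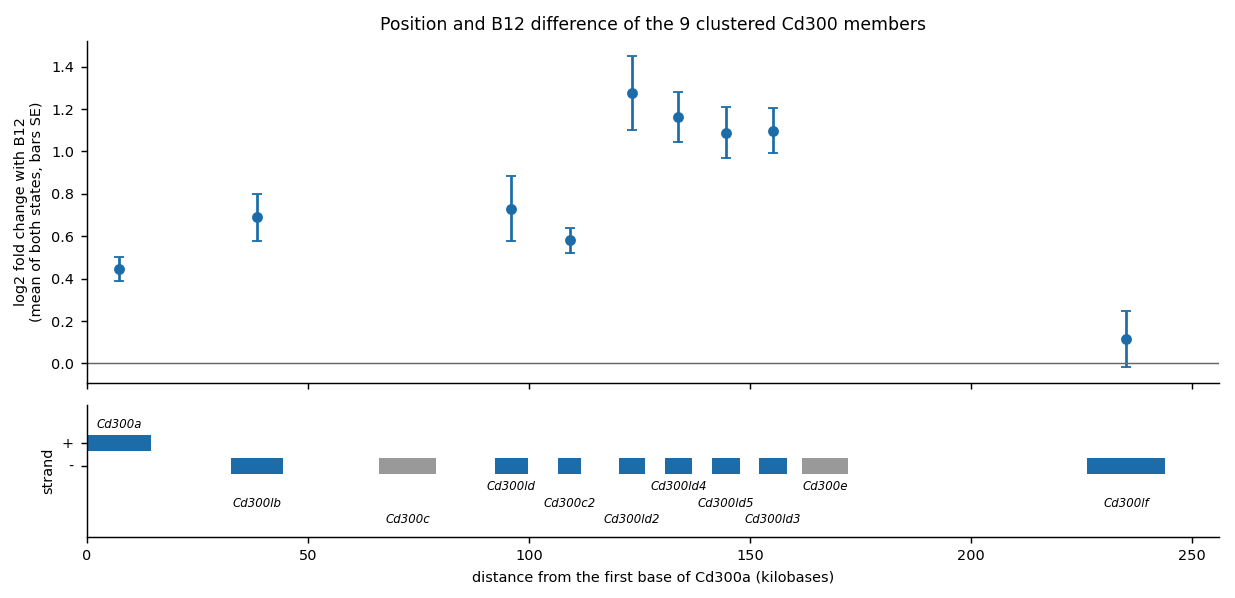
Fitted log2 fold change with B12 over both states (points, with SE) of the 9 members of the cluster, placed at the middle of each gene, above the genes drawn by strand as distance in kilobases from the first base of Cd300a (members blue, Cd300c and Cd300e grey). The 4 adjacent genes Cd300ld2, Cd300ld4, Cd300ld5 and Cd300ld3 lie between 1.09 and 1.27, the members before them between 0.45 and 0.73, and Cd300lf at 0.11.

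Macrophage markers moved in the same direction. Of 14 listed, 13 were tested, 12 were higher with B12 over both states and 10 rose at an adjusted p under 0.05, with a median log2 fold change of 0.56. Their summed level was 1194 to 2290 CPM in MEF against 1800 to 3033 CPM in MEF+B12, and 1203 to 2091 CPM in OSKM against 1831 to 2416 CPM in OSKM+B12. Among the defining ones, Csf1r, the receptor for macrophage colony-stimulating factor, rose by 0.71 ± 0.08 and Spi1 by 0.66 ± 0.09, while Cx3cr1 gave −0.45 ± 0.20 (adjusted p = 0.296) and Cd163 was too low to test. Within clones, the mean log2 level of the 13 markers went up by 0.49 ± 0.10 in MEF and 0.49 ± 0.24 in OSKM (SD, n = 3). Set against that mean in the same libraries, Cd300ld4 went up by a further 0.68 ± 0.19 in MEF and 0.70 ± 0.34 in OSKM, in 3 of 3 clones each time. Cd300ld3 and Cd300ld5 gave 0.67 ± 0.08 and 0.68 ± 0.12 in MEF, and 0.57 ± 0.27 and 0.55 ± 0.35 in OSKM. The family was chosen on the B12 differences of Cd300ld4 and Cd300ld5, and Cd300ld3 shares most of its sequence with them. Nothing is therefore read from the excess of these genes over the markers. Cd300a stayed near the markers, at −0.02 ± 0.10 and −0.06 ± 0.19, and Cd300lf was below them, at −0.30 ± 0.40 and −0.42 ± 0.14. The part of the macrophage markers in the B12 differences of the members was not tested.

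Signalling partners were then examined as a list of 20, of which 20 were tested. They were not used to propose the family, but the list was chosen with earlier results of these data known. Over both states 16 rose with B12 and 0 fell, where 3.46% of all genes rose, and the median log2 fold change was 0.60. In OSKM 10 rose (1.05% of all genes) and in MEF 12 (1.37%). Without clone 2 the counts were 0 in OSKM, 0 in MEF and 3 over both, and without clone as a term 0, 0 and 6. Without clone 3 they were 2, 3 and 12. The adaptors Tyrobp and Fcer1g rose by 0.50 ± 0.08 (adjusted p = 0.00507) and 0.48 ± 0.10 (adjusted p = 0.0234) over both states, and Hcst, which encodes DAP10, gave 1.00 ± 0.26 from a mean of 0.256 CPM (adjusted p = 0.064). Of the phosphatases, Ptpn6 rose by 0.62 ± 0.09 and Inpp5d, which encodes SHIP-1, by 0.84 ± 0.06, while Ptpn11, which encodes the broadly expressed SHP-2, gave −0.04 ± 0.04 (adjusted p = 0.627). The kinases Syk and Lyn rose by 0.50 ± 0.06 and 0.55 ± 0.05. Other partners that rose included Btk (0.76), Plcg2 (0.52), Pik3cd (0.59), Pik3r5 (0.55), Pik3ap1 (0.79), Vav1 (0.71), Lat2 (0.75), Lcp2 (0.67) and Card9 (0.66), which carry signals on from such receptors. These are genes of myeloid cells in general, and their course ran beside that of the macrophage markers given above, whose part was not tested. Of 20 other receptors of myeloid cells, all of immunoglobulin type except the C-type lectin Clec12a, 18 were tested, 6 rose over both states and 17 had higher fitted levels, with a median of 0.35. The 6 were Sirpa, Lilra6, Pirb, Cd200r1, Siglec1 and Siglece, with log2 fold changes of 0.36 to 0.65.

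The second question was whether OSKM induction for 72 h changed the family, which its choice did not use. No member passed the threshold in either comparison. Cd300ld, Cd300lg, Cd300ld3 and Cd300ld5 were higher in 6 of 6 pairs of libraries, and Cd300ld2 and Cd300ld4 in 5 of 6. Cd300a was lower in 6 of 6, and Cd300lb and Cd300c2 in 5 of 6. The share of all genes with such counts of pairs was not computed, so they are a description. The sum of all members differed little between induced and uninduced cells. At an adjusted p under 0.05, edgeR called 0 of 10 members without B12, where 0.073% of all genes passed, and 0 with B12, where 0.104% did. At an unadjusted p under 0.05 there were 5 members against 19% of all genes, and 4 against 14.9%. Both counts include Cd300lg, which passed the filter through its induced groups. The count without B12 also includes Cd300ld3 and Cd300ld5, which share most of their sequence. Nothing is therefore read from these counts. DESeq2 called 1 member each time, Cd300ld.

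Cd300ld had 5.06, 4.35 and 4.26 CPM in MEF and 10.5, 9.92 and 5.35 CPM in OSKM of clones 1, 2 and 3. With B12 it had 7.48, 9.005 and 7.37 CPM in MEF+B12 and 12.4, 20.5 and 8.34 CPM in OSKM+B12. The OSKM libraries lay above the MEF libraries with no overlap, as did those of 4.77% of all genes, clones 1 and 2 were about 2-fold up and clone 3 was only slightly above its partner. The groups with B12 overlapped. The log2 fold change was 0.87 ± 0.22 without B12 (adjusted p = 0.159) and 0.72 ± 0.21 with B12 (adjusted p = 0.181). The call depended on the test and on clone 3. DESeq2 gave adjusted p = 0.00627 and 0.0288, edgeR with no filter 0.00642 and 0.0153, and edgeR without clone 3 0.0205 and 0.0297, with log2 fold changes of 1.12 and 0.98. Without the OSKM library of clone 1 the value without B12 was 0.67 (adjusted p = 0.419). Set against the mean of the macrophage markers, which gave −0.22 ± 0.18 without and −0.22 ± 0.25 with B12 (SD, n = 3), Cd300ld went up by 1.07 ± 0.63 without and 0.92 ± 0.63 with B12.

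Cd300lg, an endothelial member that binds L-selectin, had 1, 2 and 1 counts in MEF and 2, 1 and 2 in MEF+B12, against 9, 16 and 7 counts in OSKM and 15, 34 and 6 counts in OSKM+B12. Every induced library was above every uninduced one, as for 4.77% of all genes without and 5.47% with B12. The gene passed the filter through its induced groups, where it is high. Added over the 3 libraries of a group and scaled by library size, the level was 7.26-fold that of MEF (95% exact interval 2.57 to 28.3, from 32 and 4 counts) and 11-fold with B12 (4.44 to 35.2, from 55 and 5 counts), intervals that cover counting error only. The fitted log2 fold changes were 2.85 ± 0.58 (adjusted p = 0.159) and 3.25 ± 0.51 (adjusted p = 0.0536). Without clone 3 the adjusted p was 0.0395 and 0.0117, and with no filter 0.0344 and 0.00812. Of 8 endothelial markers 4 were tested and 0 were called, with 2 of 4 higher without and 3 of 4 higher with B12. The 8 genes summed to 44.5 to 48.1 CPM in MEF and 43.9 to 44.2 in MEF+B12, against 55.3 to 146 in OSKM and 50.9 to 140 in OSKM+B12, mostly from Tek (a mean of 68.8 CPM). Tek gave 1.24 ± 0.29 without B12 (adjusted p = 0.159), the endothelial cadherin gene Cdh5 1.36 ± 0.34 (adjusted p = 0.159), Kdr −0.02 ± 0.15 (adjusted p = 0.961) and Egfl7 −0.17 ± 0.16 (adjusted p = 0.573), and the defining markers Pecam1, Emcn, Tie1 and Cldn5 were each below 1 CPM in all 12 libraries. Their part in the Cd300lg counts was not tested.

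The remaining members moved less. Cd300lb gave −0.37 ± 0.16 without and −0.39 ± 0.15 with B12 (adjusted p = 0.248 and 0.275). Cd300ld3, Cd300ld4 and Cd300ld5 gave values from 0.27 to 0.43, with adjusted p from 0.226 to 0.479, and their sum 0.38 ± 0.16 and 0.29 ± 0.15 (adjusted p = 0.229 and 0.4). For Cd300c2 the fitted values were −0.08 ± 0.09 and −0.12 ± 0.08, with 95% intervals of −0.27 to 0.11 and −0.31 to 0.06. The sum of all members gave 0.12 ± 0.10 and 0.09 ± 0.10 (adjusted p = 0.537 and 0.73). Of the macrophage markers, edgeR called 0 of 13, 5 and 7 were under an unadjusted p of 0.05, and their medians were −0.18 and −0.24. Of the 20 signalling partners it called 0, 7 and 9 were under an unadjusted p of 0.05, and the medians were −0.17 and −0.23. DESeq2 called 1 partner without B12, Vav1 (−0.38), and 3 with B12, Pik3r5, Pik3ap1 and Lat2 (−0.38 to −0.48). Without clone 3, 2 and 5 partners passed in edgeR, all of them lower in induced cells.

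**Figure D5:**
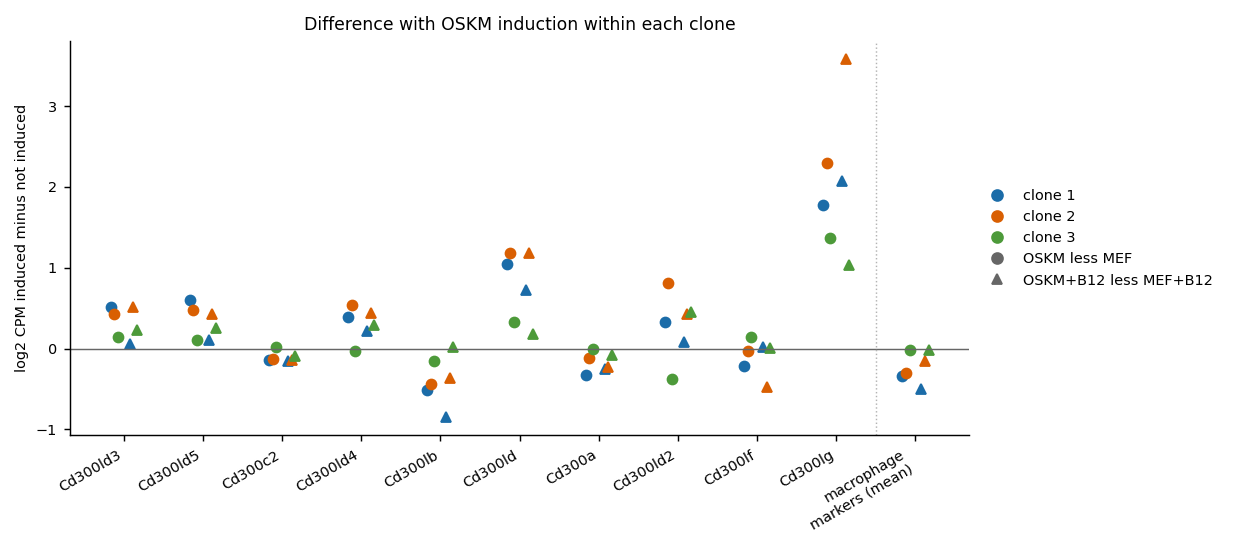
Difference in log2 CPM between the induced library and the uninduced library of the same clone, without (circles) and with B12 (triangles), for each member and for the mean of 13 macrophage markers, coloured by clone. Cd300ld lies above 0 in 6 of 6 pairs, at 0.73 to 1.19 in clones 1 and 2 and at 0.33 and 0.18 in clone 3, and Cd300lg lies above 1 in all 6.

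The B12 difference was then compared between induced and uninduced cells. It did not differ at the threshold for any member. This comparison is built from the B12 differences that led to the choice of the family, so its values for members are a description. The interaction, which is the B12 difference in OSKM minus that in MEF, lay between −0.16 and 0.40 over the 10 members, edgeR called 0, DESeq2 called 0, and 0 members had an unadjusted p under 0.05, against 1.42% of all genes. For Cd300ld4 it was −0.00 ± 0.23, with a 95% interval of −0.51 to 0.51, and for Cd300a −0.04 ± 0.11, with an interval of −0.29 to 0.21, so that differences within these bounds could not be seen with 3 clones. None of the 20 partners was called by edgeR or DESeq2, and 0 had an unadjusted p under 0.05.

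The responses were also compared between clones. With B12, clone 1 had the smallest difference in Cd300ld3, Cd300ld4 and Cd300ld5, where Cd300ld5 gave a mean of 0.67 in clone 1 against 1.27 and 1.37 in clones 2 and 3. That mean includes the OSKM library of clone 1 that stood apart, and in MEF alone the values of Cd300ld5 were 0.92, 1.29 and 1.29. By the test of whether the B12 response differed between clones, edgeR and DESeq2 called 0 of 10 members. An unadjusted p under 0.05 was found for 4 (Cd300c2, Cd300ld3, Cd300ld4 and Cd300ld5), against 1.18% of all genes. The test uses the B12 differences that led to the choice of the family, so nothing is read from this count. As Cd300ld3, Cd300ld4 and Cd300ld5 share most of their sequence, they do not count as separate results. Clone 1 also carries the other title year, so clone and year cannot be told apart. For induction, 0 members differed between clones in edgeR, where 2.15% of all genes did, and 2 had an unadjusted p under 0.05, Cd300ld (0.0128, adjusted p = 0.184) and Cd300lb (0.0477, adjusted p = 0.33). DESeq2 called Cd300ld (adjusted p = 0.035), and so did edgeR without clone 1 (adjusted p = 0.0202).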

How the data were processed

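Per the labels and the study's methods, the authors isolated poly(A) RNA, made strand-specific libraries, aligned the paired reads to mm10 (GRCm38) by STAR 2.5.2 and ran featureCounts with the reverse strand setting. The values deposited are unnormalized counts, with the sequencing runs of a library added together. How pairs that match several places were counted is not given in the sources used here. The labels give doxycycline at 1 µg/ml and the study's methods a different concentration, and which one was used is unsettled.

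CPM and log2 CPM (prior count 2) were computed from the deposited counts with TMM factors of 0.934 to 1.06. Tests were by quasi-likelihood F statistics in edgeR 4.0.16 (R 4.3.3, limma 3.58.1), with filterByExpr, 19174 genes, group and clone as terms and Benjamini-Hochberg adjustment over all genes at 0.05. Errors of fitted log2 values are standard errors, and adjusted p-values are from edgeR unless DESeq2 1.42.0 is named. Clone was a term because all 4 groups came from the same 3 embryos, and deviations from the group means went together within clones (correlations of 0.456 to 0.887 over 18 pairs, −0.703 to 0.230 over 36 pairs between clones). A further fit tested whether a response differed between clones. Symbols, positions (1-based) and transcripts came from GENCODE M21 on GRCm38, which matched 55480 of 55573 identifiers, and aligned with Biopython 1.88. Levels per kilobase divide CPM by exon length. The fits were tested on simulated data.

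The members and gene lists were chosen with earlier results of these data known. All members were named, then Cd300c and Cd300e, the first 8 listed partners and those that passed (except 1 that is counted but not reported here by name), the 10 genes most like the family, and genes within 100000 bases. Alternatives were other scalings and filters, DESeq2, no clone term, fewer libraries, each clone left out, and members of shared sequence summed. The counts carry no molecular identifiers, so their precision does not cover amplification.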

Additional observations from a re-analysis of the deposited data

How the results depend on the processing

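The counts of members and partners called rested on the clone term and on clones 2 and 3. The clone block, with which same-numbered libraries are paired, is in the main fit. With no replicate block, members called were 0 for B12 in OSKM, 0 in MEF and 1 over both, and partners 0, 0 and 6. Leaving out 1 clone at a time gave 0 to 6 members in OSKM, 0 to 6 in MEF and 0 to 7 over both, with partners at 0 to 14, 0 to 15 and 3 to 16. For induction the same gave 0 to 2 members without and 0 to 2 with B12, partners 0 to 2 and 0 to 5, and 0 to 1 members whose induction response differed between clones. With only the libraries compared, 1 member passed for B12 in OSKM and 8 in MEF, and DESeq2 and no filter each gave 8 in both. With no filter, 2 members and 1 partner passed for induction without B12, 2 and 3 with B12, and 2 members for the difference between clones. DESeq2 gave 1 member and 1 partner, 1 and 3, and 1, and library totals gave 1 member (Cd300lg) for induction with B12. The cause of these shifts was not tested. With Cd300ld3, Cd300ld4 and Cd300ld5 as 1 row, 4, 4 and 6 of 8 rows passed for B12 in OSKM, in MEF and over both. The share of all genes that passed was not computed for these alternatives. Since the B12 comparisons led to the choice of the family, nothing is read from the counts of members for B12.

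The B12 difference of the summed family was 0.66 to 0.90 over all alternatives run.

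Values near 0 changed sign. The interaction of Cd300ld2 was −0.013 with library totals and −0.078 with no replicate block, and that of Cd300ld4 0.0013 with no filter, 0.00033 with at least 10 counts in every library and 0.0024 in DESeq2. Without the OSKM library of clone 1 the interaction was 0.0078 for Cd300c2, 0.029 for Cd300lb, 0.053 for Cd300ld, 0.092 for Cd300ld3, 0.20 for Cd300ld4 and 0.092 for Cd300ld5. Leaving out 1 clone gave interactions of −0.13 to 0.11 for Cd300lb, −0.28 to 0.19 for Cd300ld2, −0.22 to 0.067 for Cd300ld3, −0.13 to 0.076 for Cd300ld4, −0.28 to 0.025 for Cd300ld5 and −0.31 to 0.066 for Cd300lf. For Cd300lf it gave −0.14 to 0.061 for induction without and −0.25 to 0.0071 with B12, and −0.017 to 0.17 and −0.026 to 0.48 for B12 in OSKM and in MEF. Cd300lg, with 1 to 34 counts, is limited by depth.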

Other observations

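The genes whose level across the 12 libraries was most like that of the summed family were Ms4a6b (Pearson r = 0.991), Ms4a6c (0.990) and P2ry12 (0.983), followed by Slc16a6, Clec4a1, Ms4a6d, Cd36, Sh3tc1, Alox5ap and C1qc (0.960), among 11630 genes with a mean log2 CPM of at least 1. The 12 libraries share clones and treatments, and the correlation is a description over them. With B12 the fitted log2 fold change over both states was 0.91 ± 0.07 for Ms4a6b, 0.82 ± 0.06 for Ms4a6c, 0.79 ± 0.10 for P2ry12 and 0.87 ± 0.10 for Cd36, a scavenger receptor. For C1qc, a chain of complement C1q, it was 0.56 ± 0.06.

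Among the members, log2 levels of Cd300ld3, Cd300ld4 and Cd300ld5 correlated at 0.995 to 0.997 over the 12 libraries, and those of Cd300a and Cd300c2 at 0.962. Since Cd300ld3, Cd300ld4 and Cd300ld5 share most of their sequence, their correlation does not show 3 genes that vary together. Cd300ld correlated at 0.227 with Cd300lb and at 0.448 with Cd300a.

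Of the genes within 100000 bases of the cluster that are no Cd300 genes, 5 passed the filter, Kif19a, Gprc5c, Slc9a3r1, Nat9 and Tmem104. Tmem104, a membrane protein gene, was the only one called with B12 over both states, with a log2 fold change of 0.30 ± 0.04 (adjusted p = 0.00101 by edgeR). Rab37, in which Cd300lf lies, had at most 11 counts in a library.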
